A study of Homo sapiens with 6 samples.

Results

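Keratins are the intermediate filament proteins of epithelial cells, and each filament is built from obligate pairs of a type I (acidic) and a type II (basic) chain. The pair in use reports the kind of epithelium: KRT8 with KRT18 in simple epithelia, KRT5 with KRT14 in the basal layer of squamous epithelia, and KRT6 chains with KRT16 and KRT17 in wounded or hyperproliferative epithelium. Squamous carcinomas often carry several of these programmes at once. Keratin-associated proteins are small, often cysteine-rich proteins known from the hair shaft, where they crosslink hair keratins.

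The genes described here are all those of the expression table whose symbol is a keratin (KRT and a number) or a keratin-associated protein (KRTAP, a subfamily number and a member number), without pseudogenes. There were 56 of them among 31368 genes, 38 keratins and 18 keratin-associated proteins. They were measured by RNA-seq of poly-A RNA from CAL27, an established human line that was grown out of a squamous carcinoma of the tongue. The series holds 6 libraries: 3 labelled as untreated, and 3 in which the cells had received lactate at 10 mM over 24 h. Which form of lactate was used, the pH and whether the untreated cells got a vehicle were not found in the labels. Nor do the labels tie the 3 libraries of a group to separate cultures, and the p-values below therefore reflect the spread among these libraries alone, which may be technical. Expression is in FPKM, fragments scaled to gene length and to a denominator for each library. Behind these values stood 25440068 to 38773887 reads per library, recovered from the FPKM values themselves. These reads came to 101% to 102% of the denominator in untreated and 96.2% to 97.3% in lactate libraries. The values thus appear already scaled between libraries and are not per library total. All 10 squamous epithelial markers looked up were present at a mean of at least 1 FPKM. Of the fibroblast, leukocyte and melanocyte markers none reached that level, and of the endothelial ones only CDH5 did, at 1.22 FPKM in untreated and 0.992 FPKM in lactate libraries. The summed level of the 5 fibroblast markers measured was 1.04 to 1.19 FPKM in untreated and 1.59 to 1.79 FPKM in lactate libraries, led by LUM and COL1A1, with COL3A1 at no more than 0.0044 FPKM. That of the 3 leukocyte markers measured was 0.735 to 0.877 and 0.380 to 0.618 FPKM, nearly all from CD14. Whether such traces play a part in the keratin values was not tested.

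12 of the 56 genes had at least 1 FPKM in at least 3 libraries and were tested, 11 keratins and KRTAP2-3. The other 44 did not pass this filter. The test was limma on log2(FPKM + 1) over 11792 genes, and a gene was called at a Benjamini-Hochberg adjusted p under 0.05 over all of them. Fold changes below are lactate over untreated on that scale, with limma's SE. KRT14, KRT17 and KRTAP2-3 were called higher, and KRT5, KRT6A, KRT7, KRT8, KRT10, KRT18 and KRT80 lower. KRT15 and KRT16 were not called. Calls were common in this comparison: 27.7% of all tested genes were called higher and 30.9% lower. In 11 of the 12 the untreated and lactate values did not overlap, as was the case for 65.5% of all tested genes. The median log2 fold change was -0.19 over the 12 and -0.016 over all tested genes, and the median size of the change, without sign, was 0.29 and 0.16. These medians rest on a scale that understates the change of low genes. In bulk RNA, fewer cells that make a keratin and less of its mRNA per cell cannot be told apart.

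**Figure D1:**
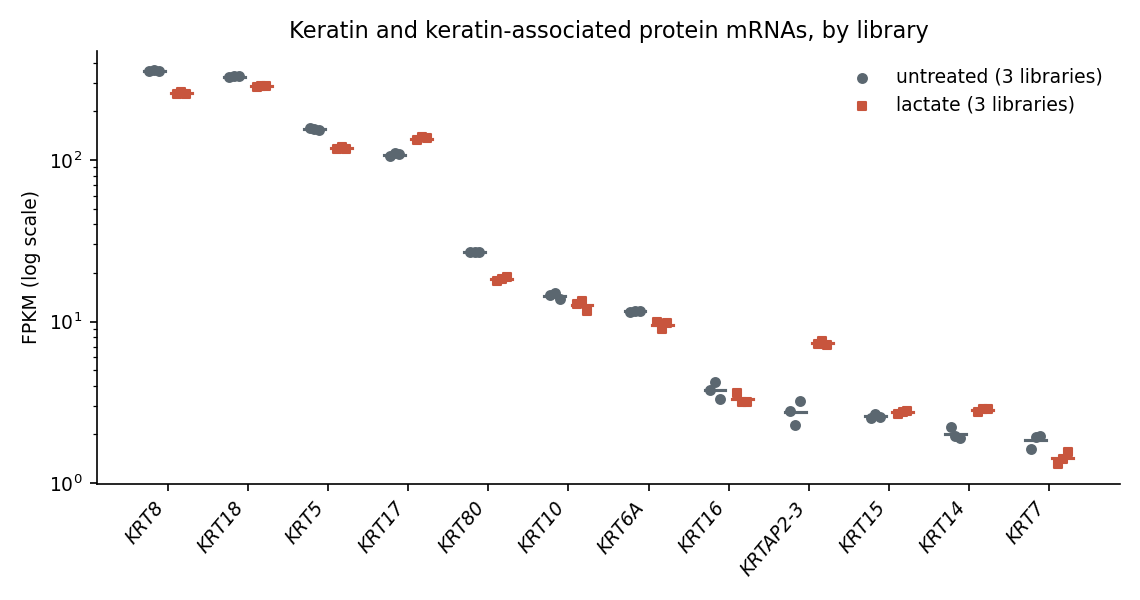
Level of the 12 tested genes in each library, in FPKM on a log axis, ordered by the untreated mean; circles are the 3 untreated libraries, squares the 3 lactate libraries, and short lines the group means. KRT8 and KRT18 lead at 255 to 359 FPKM, and the 2 groups separate most widely for KRTAP2-3.

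The simple epithelial keratins were the most abundant. KRT8 (ENSG00000170421, GRCh38 chr12:52897187-52949954, minus strand), the type II chain of simple epithelia, stood at 357, 359 and 355 FPKM in untreated libraries and at 255, 263 and 258 FPKM in lactate libraries. Every lactate library was thus far below every untreated one, with a spread of at most 3.96 FPKM (SD) in either group. The log2 fold change was -0.47 (SE 0.016, adjusted p = 7.0e-06), a change of -27.6% in level. Its type I partner KRT18 (ENSG00000111057, chr12:52948871-52952901, plus strand) stood at 326, 331 and 329 FPKM in untreated and at 284, 286 and 289 FPKM in lactate libraries. The groups did not overlap here either, but the fall was smaller, with a log2 fold change of -0.20 (SE 0.015, adjusted p = 4.9e-05). With quantile normalization KRT18 was no longer called (log2 fold change -0.0034, adjusted p = 0.906), while KRT8 was (-0.28). On read totals and with the GC and length trend removed, KRT18 kept its call at -0.13 and -0.080. KRT18 is a type I gene that lies outside the type I cluster, beside KRT8. The annotated exons of the 2 genes share 525 nt on opposite strands, and since no source says that counting used strand, reads there cannot be told apart.

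Within each library the ratio of KRT8 to KRT18 was 1.10, 1.08 and 1.08 in untreated and 0.897, 0.918 and 0.893 in lactate libraries. The order of the pair was therefore reversed, KRT8 above KRT18 without lactate and below it with lactate. The mean log2 ratio differed by -0.27 (exact two-sided permutation p = 0.1, adjusted p = 0.15 over 3 pairs), and 0.1 is the smallest p that 3 against 3 libraries allow. This ratio does not depend on the scale between libraries, but where it stands relative to 1 depends on gene length: the FPKM of KRT8 rest on 6881 nt and those of KRT18 on 3069 nt, and by reads KRT8 had the larger number in all 6 libraries (54286 to 81401 against 25577 to 35660). The table also holds 20 KRT8 pseudogenes, whose summed level was 38.5 to 42.1 FPKM in untreated and 29.7 to 31.8 FPKM in lactate libraries. The 3 of them that could be tested were all called lower, where 30.9% of all tested genes were. The reads of all 20 came to 2.36% to 2.68% of those of KRT8. Whether these are reads of KRT8 itself was not tested.

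KRT7, the type II chain of ductal and glandular epithelia, was far less abundant. It stood at 1.64, 1.93 and 1.97 FPKM in untreated and at 1.31, 1.40 and 1.55 FPKM in lactate libraries. The groups did not overlap, but the highest lactate library came close to the lowest untreated one. The log2 fold change was -0.23 (SE 0.064, adjusted p = 0.0162), and -0.37 by voom on the recovered reads. The call was lost without lactate replicate 1 (adjusted p = 0.0548), untreated replicate 2 (0.0521) or untreated replicate 3 (0.0576), with the GC and length trend removed (0.0557) and with no filter on low values (0.0624). 282 nt of its exons lie opposite the antisense gene KRT7-AS. The usual partner of KRT7 in ducts, KRT19, was nearly absent at 0.0386 to 0.138 FPKM, and KRT20 and KRT23, keratins of gut and other glandular epithelia, did not exceed 0.0486 FPKM in any library.

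The basal keratins moved in different directions. KRT5 (ENSG00000186081, chr12:52514575-52520687, minus strand), the type II chain of the basal layer, stood at 157, 155 and 153 FPKM in untreated and at 118, 121 and 117 FPKM in lactate libraries. All lactate libraries were lower, by about the same amount. The log2 fold change was -0.39 (SE 0.020, adjusted p = 1.4e-05), and -0.20 with quantile normalization (adjusted p = 0.00027). KRT14 (ENSG00000186847, chr17:41582279-41586921, minus strand), its type I partner, was far less abundant, at 2.23, 1.96 and 1.89 FPKM in untreated and 2.74, 2.87 and 2.89 FPKM in lactate libraries. It was higher in all 3 lactate libraries, with a log2 fold change of 0.34 (SE 0.051, adjusted p = 0.00093). KRT15, a type I keratin of basal and progenitor cells, was at 2.59 ± 0.0782 FPKM (SD, n = 3) in untreated and 2.74 ± 0.0464 FPKM in lactate libraries. Its log2 fold change of 0.056 (95% interval -0.029 to 0.14, adjusted p = 0.218) did not pass. It did pass when values were scaled to the read totals (0.11, adjusted p = 0.0397) or freed of the GC and length trend (0.11, adjusted p = 0.0304).

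KRT5 and KRT14 are known as partners, yet KRT5 exceeded KRT14 in every library. The ratio was 70.5, 79.3 and 81.2 in untreated and 43.0, 42.1 and 40.4 in lactate libraries, so all lactate ratios were lower. The mean log2 ratio differed by -0.88 (exact two-sided permutation p = 0.1, adjusted p = 0.15). KRT14 rested on 111 to 262 reads per library. Its longest transcript in GENCODE 29 matches that of KRT17 at 89.4% of 1003 aligned bases and that of KRT16 at 89.5% of 1361, and KRT17 had 8288 to 16439 reads. Whether reads of KRT17 contributed to KRT14 was not tested.

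The keratins of wounded and hyperproliferative epithelium were split too. KRT17 (ENSG00000128422, chr17:41619441-41624842, minus strand), a type I keratin of wound edges, hair follicles and many squamous tumours, stood at 106, 110 and 108 FPKM in untreated and at 132, 139 and 136 FPKM in lactate libraries. The lowest lactate library was well above the highest untreated one. The log2 fold change was 0.33 (SE 0.024, adjusted p = 4.5e-05), the only call higher among the 7 genes with a mean of at least 10 FPKM. KRT6A, the type II wound keratin, stood at 11.4, 11.7 and 11.6 FPKM in untreated and at 9.98, 8.97 and 9.77 FPKM in lactate libraries. It was lower in all lactate libraries (log2 fold change -0.25, SE 0.040, adjusted p = 0.0013). After removal of the trend on GC content and length it was -0.12 (adjusted p = 0.0475).

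KRT16, the usual type I partner of KRT6 chains, stood at 3.75, 4.22 and 3.33 FPKM in untreated and at 3.60, 3.15 and 3.18 FPKM in lactate libraries. These groups overlapped, and the log2 fold change of -0.14 (95% interval -0.32 to 0.030, adjusted p = 0.133) did not pass. Without untreated replicate 3 it was -0.21 (adjusted p = 0.0360), without untreated replicate 2 it was -0.076 (adjusted p = 0.359), and with the GC and length trend removed -0.017 (adjusted p = 0.867). The ratio of KRT6A to KRT16 was 3.10 ± 0.366 (SD, n = 3) without lactate and 2.90 ± 0.156 with it (exact permutation test, two-sided p = 0.7, adjusted p = 0.7). KRT6B and KRT6C, near copies of KRT6A, stayed below the filter. Over the longest transcripts KRT6A matches KRT6B at 95.5% of 1944 aligned bases and KRT6C at 95.4% of 2291, so the split of reads among the 3 is uncertain. Their sum was 12.6 ± 0.121 FPKM in untreated and 10.3 ± 0.549 FPKM in lactate libraries (log2 fold change -0.27, SE 0.039, adjusted p = 0.00077).

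Of the suprabasal and differentiation keratins 2 of 8 were tested, and both fell. KRT80, a type II keratin that appears late in epithelial differentiation, stood at 26.9, 27.1 and 27.0 FPKM in untreated and at 17.9, 18.3 and 18.8 FPKM in lactate libraries. Among the 11 tested keratins its fall was the steepest, with a log2 fold change of -0.53 (SE 0.025, adjusted p = 1.2e-05) and a change of -32.1% in level. Over all tested genes, 1.55% changed by more. KRT10, the type I chain of suprabasal skin, stood at 14.6, 14.9 and 13.8 FPKM in untreated and at 12.8, 13.4 and 11.6 FPKM in lactate libraries. Here the groups lay close together, and the log2 fold change was -0.19 (SE 0.053, adjusted p = 0.0191).

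The KRT10 call was lost when values were scaled to the read totals (adjusted p = 0.0956) or freed of the GC and length trend (-0.047, adjusted p = 0.494), with no filter (0.0818), and without untreated replicate 1 (0.0550) or 2 (0.0627). Its exons share 56 nt with TMEM99 on the opposite strand. KRT13, the type I keratin of the suprabasal layers of the mouth lining, was between 0.0111 and 0.137 FPKM. KRT1, KRT2, KRT4, KRT24, KRT77 and KRT79 were not analysed here. The other members of this class, KRT3, KRT9, KRT12, KRT76 and KRT78, had no library above 0.683 FPKM.

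**Figure D2:**
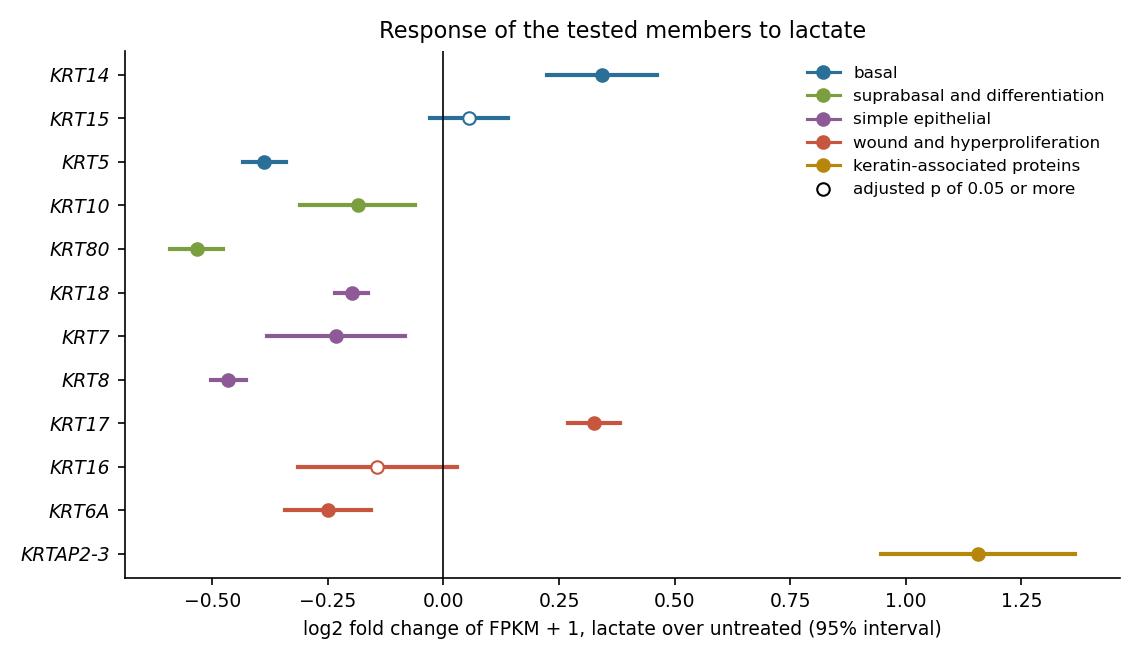
Log2 fold change of FPKM + 1 (lactate over untreated) of the 12 tested genes on the horizontal axis, coloured by class, with limma's 95% intervals; open circles did not pass an adjusted p of 0.05. The basal and wound classes hold changes in both directions, and KRTAP2-3 is the farthest from 0 at 1.16.

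Of the 18 keratin-associated protein genes only KRTAP2-3 passed the filter, and most of the others were undetected or nearly so. KRTAP2-3 (ENSG00000212724, chr17:41059240-41060114, minus strand) stood at 2.79, 2.27 and 3.23 FPKM in untreated and at 7.27, 7.58 and 7.16 FPKM in lactate libraries. The groups were well apart, on 50 to 94 reads per untreated and 197 to 252 reads per lactate library. The log2 fold change was 1.16 (SE 0.088, adjusted p = 7.3e-05), the largest among the 12 in either direction, and over the alternatives tried it lay between 1.06 and 1.39. KRTAP2-4 (ENSG00000213417, chr17:41065116-41065879, minus strand), its neighbour in the same subfamily, was below the filter at 0.740, 0.416 and 0.354 FPKM in untreated and 0.888, 1.51 and 1.01 FPKM in lactate libraries. These groups did not overlap, on 8 to 16 and 21 to 38 reads.

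The longest transcripts of KRTAP2-3 and KRTAP2-4 match at 99.5% of 428 aligned bases, out of 875 and 764, so reads from that stretch could belong to either gene. They also match KRTAP2-1, at 98.9% of 446 and 99.3% of 425 aligned bases, and KRTAP2-2, at 95.7% of 416 and 95.6% of 413. KRTAP2-1 and KRTAP2-2 are not among the genes described here, and whether reads of theirs contributed was not tested. Summed, the pair stood at 3.27 ± 0.501 FPKM (SD, n = 3) in untreated and 8.47 ± 0.533 FPKM in lactate libraries, with a log2 fold change of 1.16 (SE 0.090, adjusted p = 8.6e-05). The KRTAP class as a whole summed to 4.59 ± 0.442 and 9.51 ± 0.299 FPKM, most of it from this pair. Of the 3 hair follicle markers measured, HOXC13, a factor of hair keratin genes, was at 1.59 and 1.60 FPKM (adjusted p = 0.973), and LEF1 and TCHH had no library above 0.494 FPKM.

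Because these 2 neighbours were higher together, the 250 bases before the start of each are shown, from RefSeq (GRCh38.p14, minus strand, 5′ to 3′), with that of KRT10, a keratin that fell, beside them. Capitals mark the TATA box letters TATAAA. The windows are chr17:41060115-41060364 for KRTAP2-3, chr17:41065880-41066129 for KRTAP2-4 and chr17:40822615-40822864 for KRT10.
KRTAP2-3: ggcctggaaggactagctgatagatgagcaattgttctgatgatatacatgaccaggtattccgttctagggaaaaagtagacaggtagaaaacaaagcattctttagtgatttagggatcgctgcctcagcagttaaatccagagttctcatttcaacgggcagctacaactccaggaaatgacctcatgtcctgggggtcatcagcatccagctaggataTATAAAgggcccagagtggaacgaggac
KRTAP2-4: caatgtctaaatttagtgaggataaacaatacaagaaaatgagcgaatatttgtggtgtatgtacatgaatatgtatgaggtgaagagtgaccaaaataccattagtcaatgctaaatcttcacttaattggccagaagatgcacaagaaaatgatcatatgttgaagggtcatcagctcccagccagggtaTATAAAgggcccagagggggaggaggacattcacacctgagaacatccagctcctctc
KRT10: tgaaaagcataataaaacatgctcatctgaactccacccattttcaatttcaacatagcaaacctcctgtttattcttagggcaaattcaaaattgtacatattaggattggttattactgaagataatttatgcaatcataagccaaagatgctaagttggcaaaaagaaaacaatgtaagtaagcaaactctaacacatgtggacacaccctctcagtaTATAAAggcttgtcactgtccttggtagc

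The TATAAA letters lie 28 to 23 bases before the start in KRTAP2-3, 58 to 53 in KRTAP2-4 and 29 to 24 in KRT10. The longest run shared by the KRTAP2-3 and KRTAP2-4 windows is 18 bases, tatataaagggcccagag, and it contains the box. The windows of KRTAP2-3 and KRTAP2-1 share the same 18 bases. That of KRTAP2-4 shares longer runs with KRTAP2-2 (61 bases) and KRTAP2-1 (52 bases), so such runs are not particular to this pair. RefSeq windows were found for 35 of the 56 genes, among them 4 of the tested ones (KRT5, KRT8, KRT10 and KRTAP2-3). On either strand, TATAAA was in 26 of the 35 (74.3%) against 10.7% of 35116 promoters of the same length. TGANTCA, the AP-1 letters, was in 3 (8.57%) against 6.57% of all promoters. GGGCGG, the SP1 letters, was in 3 (8.57%) against 42.6%, and GCCNNNGGC, the AP-2 letters, in 3 (8.57%) against 19.8%. CACGTG, the E-box letters, was in none of the 35 and in 6.34% of all promoters. The windows of KRT5 and KRT8 held none of these motifs, but both lie inside the longer gene models of GENCODE 29, so other starts of these 2 genes were not searched. Among the tested genes with a window, TATAAA was thus beside only KRTAP2-3, called higher, and KRT10, whose call lower was lost in 5 alternatives. It was also beside many genes that were hardly detected.

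Below the filter lay 44 genes, the highest at 1.51 FPKM in a single library. 24 of them had fewer than 10 reads in all 6 libraries together, and 29 were listed at 0 in at least 1 library. 10 had at least 10 reads in at least 3 libraries and could be examined with voom, limma's test for counts, on the recovered reads of 17101 genes, of which 24.5% were called higher and 24.0% lower. In that test KRTAP2-4 was called higher (log2 fold change 1.18, SE 0.35, adjusted p = 0.0041). KRT6B (-0.77, SE 0.21, adjusted p = 0.0016) and KRT78, a type II keratin of differentiating epithelium (-0.54, SE 0.22, adjusted p = 0.034), were called lower. Fitted by limma on FPKM with no filter, KRT6B passed as well (adjusted p = 0.0269), and KRTAP2-4 (0.0650) and KRT78 (0.1503) did not.

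Among the hair shaft keratins, KRT34 was the most abundant at 0.770 to 1.22 FPKM. Its lactate values, 0.770 to 0.800 FPKM, all lay below the untreated ones, and by voom its log2 fold change was -0.38 (SE 0.21, adjusted p = 0.140). KRT81 and KRT86, type II hair keratins, were at 0.176 to 0.384 FPKM with overlapping groups, as were KRTAP4-1 (0.337 to 0.851 FPKM), KRTAP4-8 (0.139 to 0.376 FPKM), KRT6C and KRT9. The 34 genes with fewer reads had no library above 0.153 FPKM. 2 of them, KRT19 and KRT222, were higher in all 3 lactate libraries, on 41 and 26 reads in all, and did not pass with no filter (adjusted p = 0.215 and 0.288). How often the groups separate among all genes this low was not computed. The 34 included the 4 keratins of the hair follicle sheath, at no more than 0.0595 FPKM, and 14 keratin-associated proteins.

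**Figure D3:**
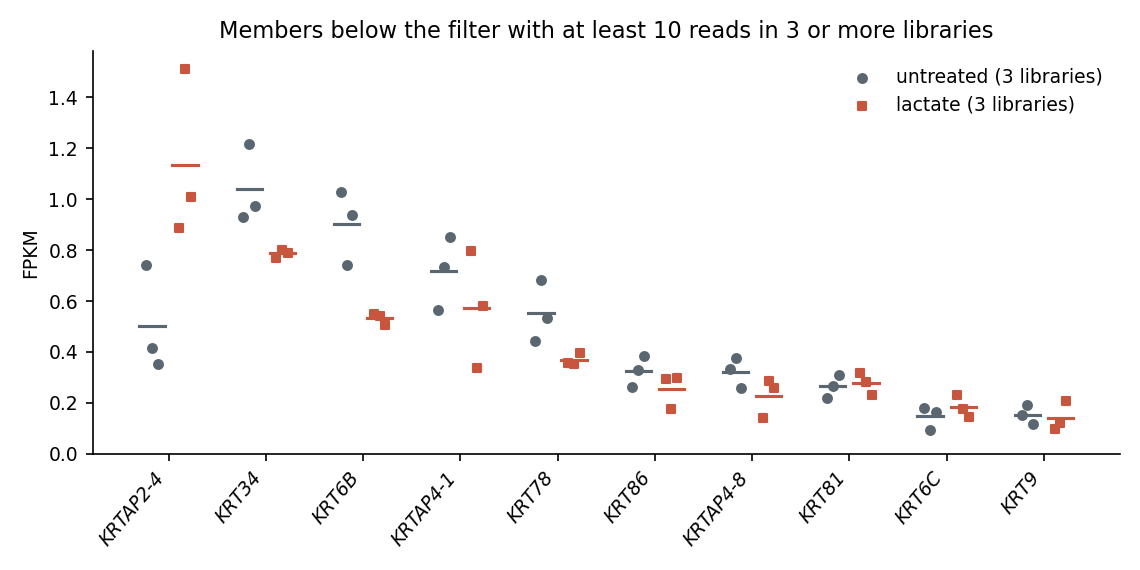
FPKM on a linear axis of the 10 genes below the filter that had at least 10 reads in at least 3 libraries, ordered by the higher group mean; circles are untreated and squares lactate libraries, 3 each, and short lines the group means. KRTAP2-4, KRT34, KRT6B and KRT78 have groups that do not overlap. The share of such genes among all genes this low was not computed.

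As sums of FPKM per class, with no test, the simple epithelial keratins came to 688 ± 3.59 (SD, n = 3) in untreated and 546 ± 5.41 in lactate libraries, and the basal ones to 160 ± 1.83 and 124 ± 2.23. The suprabasal and differentiation class came to 42.2 ± 0.771 and 31.5 ± 0.651. The wound class came to 125 ± 1.95 and 150 ± 2.77, with KRT17 making up most of it. For each of these sums the 3 lactate libraries lay on 1 side of the 3 untreated ones. A class sum follows its most abundant gene: the basal sum was lower although KRT14 rose, and the wound sum higher although KRT6A fell. Over the tested genes of each class, the direction of the sum was the same under all 4 rescalings tried, but its size was not. With quantile normalization the simple sum changed by -9.47% in place of -20.6%, the basal sum by -11.8% in place of -22.4%, and the wound sum by 33.1% in place of 20.5%. Removal of the GC and length trend gave 31.1% for the wound sum.

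**Figure D4:**
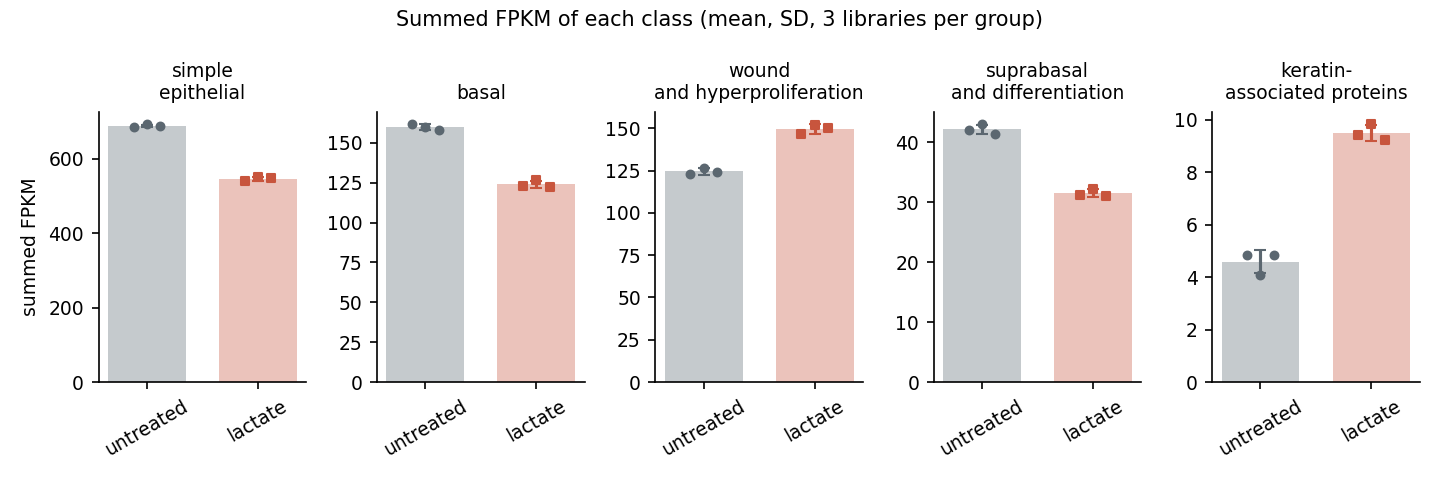
Summed FPKM of the simple, basal, wound, suprabasal and keratin-associated classes in untreated and lactate libraries. Bars are means of 3 libraries, whiskers SD and points single libraries, each panel with its own axis from 0. The hair shaft and hair follicle sheath keratins are not drawn. The simple, basal and suprabasal sums are lower with lactate, and the wound and keratin-associated sums higher.

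All 38 keratins together came to 1016 ± 6.22 FPKM in untreated and 853 ± 10.1 FPKM in lactate libraries. The size of this difference depends on the scaling: the sum over the 12 tested genes changed by -15.6% as deposited, by -9.82% with the GC and length trend removed and by -4.63% with quantile normalization. As a share of all FPKM in a library, as deposited, the 38 keratins came to 0.233% ± 0.00385 and 0.212% ± 0.00546. Their make-up differed as well. KRT8 made up 35.1% ± 0.107 of keratin FPKM without lactate and 30.3% ± 0.126 with it, and KRT5 15.3% ± 0.180 and 13.9% ± 0.184. KRT17 made up 10.6% ± 0.129 and 15.9% ± 0.226, and KRT18 32.4% ± 0.181 and 33.6% ± 0.349. These shares rest on gene length too. By reads KRT8 made up 52.7% and 47.6%, KRT5 13.8% and 13.1%, KRT17 6.95% and 10.9%, and KRT18 21.7% and 23.5%. In FPKM the order without lactate was KRT8, KRT18, KRT5, KRT17, KRT80, KRT10, KRT6A, KRT16, KRTAP2-3, KRT15, KRT14 and KRT7. Of these, KRTAP2-3 and KRT15 overlapped, as did KRT14 and KRT7. With lactate KRT18 stood above KRT8, KRT17 above KRT5 and KRTAP2-3 above KRT16, each without overlap, and KRT14 and KRT15 overlapped. These orders rest on the gene lengths behind the FPKM: by reads KRT5 stayed above KRT17 in all 3 lactate libraries (15046 to 19394 against 12258 to 16439), and KRT16 above KRTAP2-3 (257 to 317 against 197 to 252).

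By chain type, all 5 tested type II keratins (KRT5, KRT6A, KRT7, KRT8 and KRT80) were called lower, where 30.9% of all tested genes were, and the 17 type II genes summed to 555 ± 2.81 FPKM in untreated and 408 ± 5.40 FPKM in lactate libraries. Of the 6 tested type I keratins 2 were called higher (KRT14, KRT17), 2 lower (KRT10, KRT18) and 2 not called (KRT15, KRT16). The 20 type I genes summed to 461 ± 4.84 and 445 ± 5.20 FPKM. Over the tested genes the type I sum changed by -3.49% as deposited and by -4.93% with median centring. On read totals, without the GC and length trend and after quantile normalization it changed by 1.45%, 4.92% and 9.12%, so its direction depends on the scaling. The type II sum changed by -17.01% to -27.6% under the same scalings. By position, the 6 tested genes on chromosome 12 are the same 5 and KRT18, and all were called lower in the main test. The calls of KRT7 and KRT18 were lost under the settings named beside them above. Of the 6 tested on chromosome 17, which carries the type I cluster and most KRTAP genes, 3 were called higher, 1 lower and 2 not, against 27.7% higher and 30.9% lower over all tested genes. The 3 KRTAP5 genes on chromosome 11 had no library above 0.0751 FPKM.

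Of the intermediate filament genes other than keratins, 4 of 12 in the table were tested, and all 4 were called lower, with a median log2 fold change of -0.17. Among all tested genes 30.9% were called lower, and the median was -0.016. LMNB2, LMNA and LMNB1 encode the nuclear lamins, and their means were 120 and 96.4 FPKM, 102 and 91.2 FPKM, and 31.5 and 29.1 FPKM (untreated and lactate). The log2 fold change of LMNB2 was -0.31, and -0.16 with quantile normalization. BFSP1, a lens filament protein, was at 1.12 and 0.861 FPKM. The calls of LMNA and LMNB1 were lost with quantile normalization (adjusted p = 0.401 and 0.278), that of LMNB1 also on read totals (0.139) and with the GC and length trend removed (0.451). For BFSP1 the call was lost without untreated replicate 1 (adjusted p = 0.0827) or 2 (0.107) and without lactate replicate 1 (0.105) or 3 (0.0897), on read totals (0.0772), with the GC and length trend removed (0.334) and with no filter (0.0889).

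Of 21 genes for desmosomal and other partners of keratin filaments, all tested, 10 were called higher, 2 lower and 9 not, with a median log2 fold change of 0.040. Over all tested genes 27.7% were called higher and 30.9% lower, and the median was -0.016. DSP, the desmoplakin that ties keratin to desmosomes, was at 9.58 ± 0.379 FPKM in untreated and 14.3 ± 0.107 FPKM in lactate libraries (log2 fold change 0.54, adjusted p = 2.3e-05). The desmosomal cadherin DSG2 was at 10.6 and 14.1 FPKM (0.39, and 0.25 without the GC and length trend), the plaque protein PKP2 at 5.45 and 7.21 FPKM (0.35), and YWHAZ, a 14-3-3 protein, at 109 and 125 FPKM (0.19). YWHAZ was at 0.36 with quantile normalization and lost its call with the GC and length trend removed (adjusted p = 0.733). The 2 lower were PKP3, a plaque protein (43.1 and 37.9 FPKM), and FAM83H, a keratin-organizing scaffold (24.9 and 22.9 FPKM). Both lost the call with quantile normalization (adjusted p = 0.126 and 0.292) and on read totals (0.0842 and 0.392). FAM83H lost it also with no filter (0.111) and without untreated replicate 2 (0.0945) or 3 (0.0811) or lactate replicate 1 (0.0939) or 3 (0.0826).

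Of 33 transcription factors known for keratin or hair keratin genes, 24 were tested, of which 8 were called higher, 10 lower and 6 not, with a median log2 fold change of -0.061. These counts stand beside 27.7% called higher and 30.9% lower among all tested genes, with a median of -0.016. EHF, an epithelial ETS factor, was at 75.2 and 95.1 FPKM (log2 fold change 0.33), and TP63, the basal-cell regulator of KRT5 and KRT14, at 26.3 and 32.0 FPKM (0.27, and 0.13 with the GC and length trend removed). KLF5, a factor of proliferating basal cells, was at 7.57 and 10.1 FPKM (0.38), and NFE2L2, the oxidative stress factor, at 9.78 and 12.2 FPKM (0.29). CEBPB and KLF4, factors of differentiating keratinocytes, fell, from 71.7 to 58.6 FPKM (-0.29) and from 18.4 to 15.1 FPKM (-0.27). CEBPB was at -0.14 with quantile normalization and -0.18 without the GC and length trend, and KLF4 at -0.16 without that trend, all still called. The AP-1 subunits JUN, at 137 and 121 FPKM, and FOS, at 43.8 and 39.1 FPKM, were called lower too, but with quantile normalization JUN was slightly higher (0.033, adjusted p = 0.210), and with the GC and length trend removed FOS did not pass (adjusted p = 0.129). Their folds as reported, -0.17 and -0.16, were -0.10 and -0.089 on read totals.

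**Figure D5:**
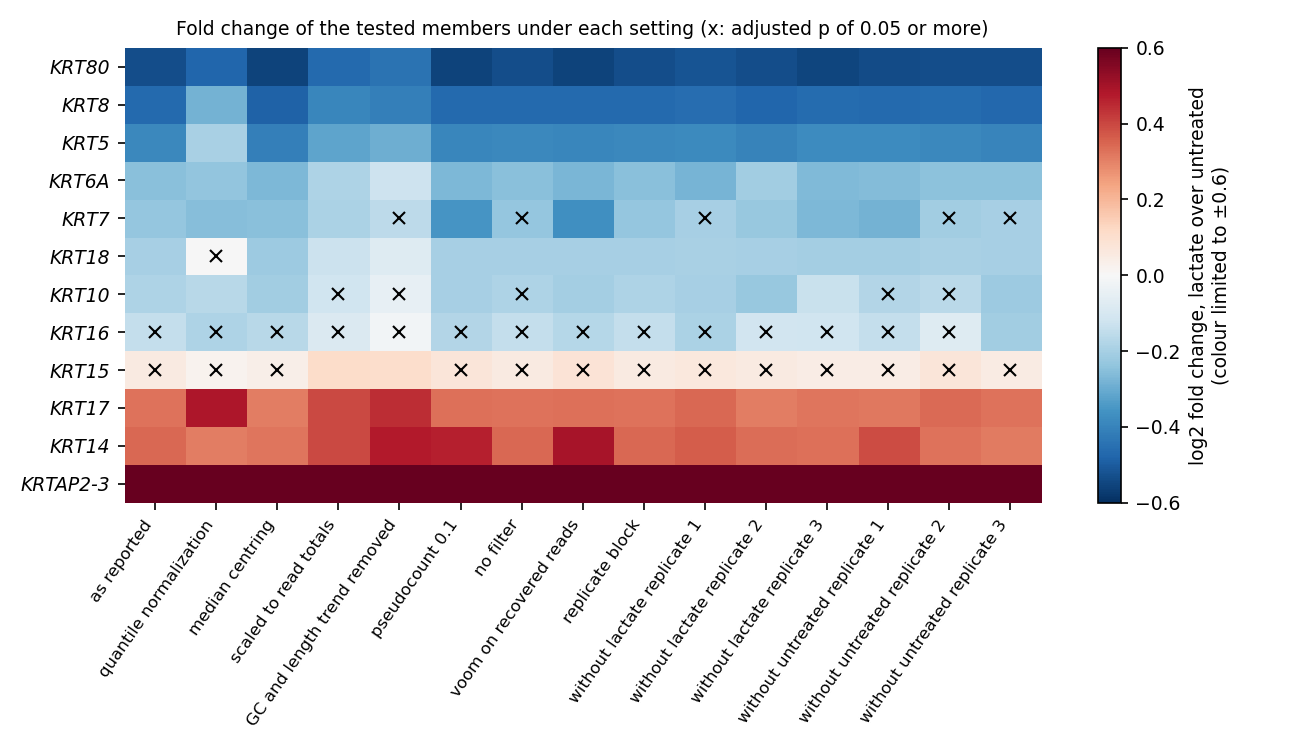
Log2 fold change (colour, limited to 0.6 in either direction) of the 12 tested genes in rows under each setting in columns; crosses mark an adjusted p of 0.05 or more. KRT5, KRT6A, KRT8, KRT80, KRT14, KRT17 and KRTAP2-3 carry no cross in any column, and the sign of each of the 12 is the same throughout.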

How the data were processed

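Poly-A RNA of CAL27 cells was profiled in 6 libraries, grouped by the treatment in the labels (3 untreated, 3 with lactate). The submitters' processing notes name the build hg38 (GRCh38) and the tools featureCounts 1.5.0-p3, StringTie 1.3.3b, HISAT2 2.0.5 and fastp. Not given in the sources used here are the annotation release, the use of strand and the treatment of reads that map to several places. The values deposited are FPKM per gene, per the file headers.

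The members and lists were chosen with earlier results of these data known. The main test was limma 3.58.1 (R 4.3.3; trended, robust) on log2(FPKM + 1), which understates the change of low genes, for every gene that reached 1 FPKM in 3 or more libraries, with group as its single term. P-values were adjusted over all 11792 genes. It was tested on simulated data. Whole reads were recovered from the deposited FPKM for 31366 genes (tolerance 0.003 reads). Reads recovered came to 101% to 102% of the FPKM denominators in untreated and 96.2% to 97.3% in lactate libraries, so the deposited values appear already scaled between libraries.

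All members past the filter were named. Those called were given in every library if they had a mean of at least 10 FPKM or were among the 5 largest rises or falls, and of each context list up to 4 genes per direction with the smallest p. Members below the filter that are named were chosen after their values were seen. Coordinates, exon overlaps and transcripts came from GENCODE 29 and promoters from RefSeq. Transcript matches are local alignments of the longest transcripts. Pair ratios were compared by exact permutation tests for the 3 of 8 listed pairs with at least 1 FPKM of both genes in all libraries. Alternatives were quantile normalization, median centring, scaling to recovered read totals, removal of the trend on GC content and length (splines with 4 degrees of freedom), a pseudocount of 0.1, no filter, a filter at 5 FPKM, voom on recovered reads, a replicate block, summed paralogs, and each library left out. Voom at 10 reads in 3 libraries and the rescaled sums were added after seeing the data. Python 3.11.15 with pandas 2.3.3, numpy 2.4.6 and scipy 1.17.1 did the rest.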

Additional observations from a re-analysis of the deposited data

How the results depend on the processing

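The 12 tested genes kept the sign of their change under every alternative that tested them, and 7 of the 10 called (KRT5, KRT6A, KRT8, KRT80, KRT14, KRT17, KRTAP2-3) kept the call. KRT18, KRT10 and KRT7 lost it under the settings named beside them. Where the same 12 members were tested, 3 or 4 were called higher and 5 to 7 lower, against 3 and 7. In those settings 21.7% to 35.5% of all tested genes were called higher and 21.6% to 34.4% lower. With a filter at 5 FPKM 2 of 8 members were called higher and 6 lower. With no filter it was 3 and 6 of 56, beside 9.26% and 9.81% of all genes. By voom at 10 reads in 3 libraries it was 4 and 9 of 22, beside 24.5% and 24.0%. With a filter at 5 FPKM, which tested 6448 genes, 1786 genes were called higher against 3265, the same 27.7% of those tested, and 2955 lower, 45.8% against 30.9%. Scaled to read totals the split of all calls was 4186 higher and 2548 lower, against 3265 and 3649. The summed FPKM of all 56 genes changed by -15.5% as deposited and by -11.2% on read totals; leaving out each library gave -16.0% to -15.0%. For the 12 tested genes alone it changed by -15.6% as deposited, -9.82% with the GC and length trend removed and -4.63% with quantile normalization. Under quantile normalization JUN was at 0.033 on the log2 scale in place of -0.17; the cause was not tested. With the replicate number as a block, 3257 genes were called higher and 3782 lower, with the same 3 and 7 among the members. Same-numbered libraries deviated together with correlations of 0.053, 0.067 and -0.0038, and differently numbered ones with -0.071 to 0.022. With 3 libraries per group, this does not settle whether the numbers pair the libraries. Leaving out each library gave log2 differences of -0.94 to -0.84 for the KRT5 to KRT14 ratio, -0.28 to -0.26 for KRT8 to KRT18 and -0.17 to -0.0020 for KRT6A to KRT16. At 8 to 38 reads per library the change of KRTAP2-4 is loosely bounded, and 34 of the 56 genes had too few reads for voom; none of these passed limma with no filter.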
